A study of Bos taurus with 40 samples.

Results

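The genes described here encode the lipases that release fatty acids from stored triacylglycerol, the proteins that switch these lipases on and off, and the proteins that coat or enlarge the lipid droplet. They were chosen by name from what is known of lipolysis, as a list of 10 genes, of which 9 have a row among the 13570 genes of the count tables: LIPE, PNPLA2, MGLL, ABHD5, G0S2, PLIN1, PLIN2, PLIN5 and CIDEC. PLIN4 is not analysed here. All 9 belonged to the 13148 genes with at least 1 read, which were the genes tested.

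RNA was sequenced from the liver, abdominal fat, longissimus dorsi muscle (a muscle of the back) and pituitary gland of 10 Korean cattle, a beef breed, with 1 library for each animal and tissue. The 5 females were cows and the 5 males bulls, and all animals were over 22 months of age. The animals are numbered within each sex (cow 1 is not paired with bull 1). The study set out to compare the sexes in tissues of metabolism and in the gland that directs them.

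Triacylglycerol is broken down in steps. PNPLA2, known as adipose triglyceride lipase, removes the first fatty acid, LIPE, known as hormone-sensitive lipase, acts on the diacylglycerol that is left, and MGLL cleaves the last monoacylglycerol. ABHD5 activates PNPLA2 and G0S2 inhibits it. Perilipins cover the droplet, and PLIN1, that of the adipocyte, holds ABHD5 away from the lipase until hormones signal for fat to be released.

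Between 5173092 and 19165864 reads per library were counted on genes, and levels are given in CPM, the reads of a gene scaled to a common library size, with TMM factors that correct for differences in composition between libraries. Markers of each tissue's main cells were abundant where the labels place them, with summed levels of 91653 CPM or more for hepatocyte genes in liver, 91328 CPM or more for skeletal muscle genes in muscle, 81663 CPM or more for pituitary hormone genes in pituitary gland and 2903 CPM or more for adipocyte genes in fat. Lower levels of these markers occurred elsewhere, such as hepatocyte genes in fat at 68.3 to 1874 CPM. The library labelled as the liver of bull 3 went against its label. It held XIST, an RNA of the inactive X chromosome, at 1401 CPM, while the livers of the other bulls held at most 0.936 CPM, and it held 0 reads on the Y-linked genes USP9Y and DDX3Y. The fat of bull 5 stood apart in another way, with USP9Y at 1.78 CPM against 28.1 CPM or more in the fat of the other bulls. Where leaving out either library changed a call, the value without it is given. The fat, muscle and pituitary gland of bull 3 held XIST at 0.183, 0.264 and 0.153 CPM. Counts of animals that compare liver with another tissue still pair the liver labelled as bull 3 with these tissues.

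Most of the 9 genes were fat genes in these animals. The levels of 8 genes, all but PLIN5, were higher in fat than in each of the other tissues (edgeR quasi-likelihood test, Benjamini-Hochberg adjusted p under 0.05), as was the case for 11.4% of all genes tested. PLIN5 was higher in muscle than in each of the others, a pattern of 13% of all genes. The pituitary gland was below each other tissue for 5 genes (10.3% of all genes), the liver for LIPE and PLIN1 (13.8%), and muscle for G0S2 (8.56%). In bulk tissue, fewer cells of a type and less RNA per cell cannot be told apart.

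**Figure D1:**
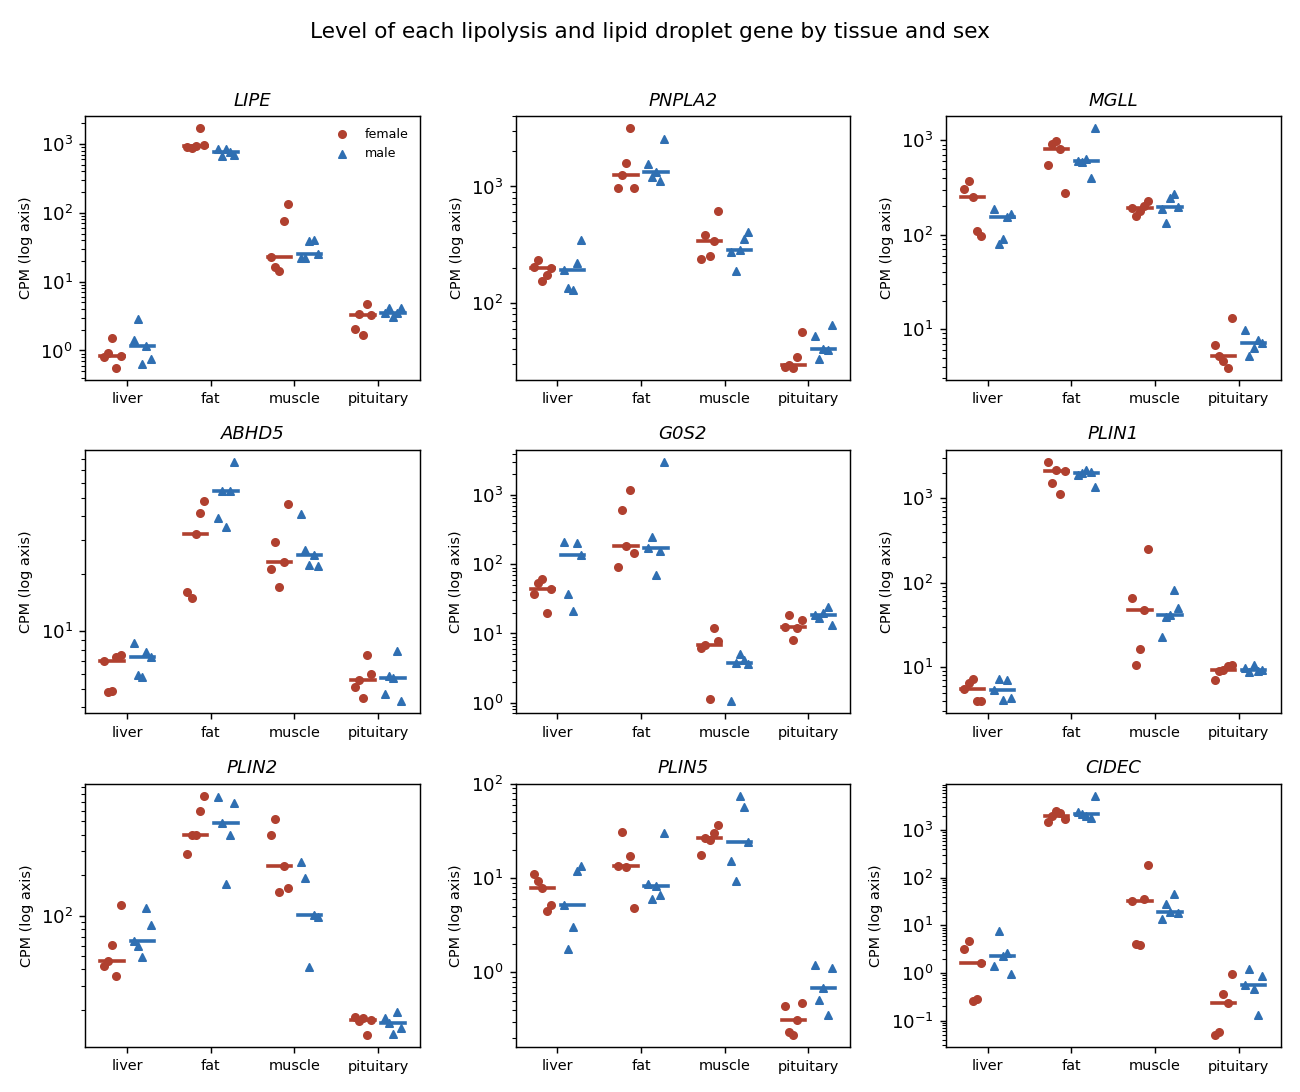
Level of each of the 9 genes (CPM after TMM scaling, log axis) in the 4 tissues, with females as circles, males as triangles and a line at the median of each group of 5. The medians of fat lie above those of the other tissues for all genes but PLIN5, and G0S2 in fat ran from 70.0 to 3038 CPM; a level of 0 is drawn at 0.05 CPM.

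Among the lipases, LIPE spanned the widest range. Its level in fat ran from 678 to 1683 CPM with a median of 859 CPM, in muscle from 14.1 to 136 CPM (median 24.0), in pituitary gland from 1.67 to 4.76 CPM (median 3.42) and in liver from 0.562 to 2.86 CPM (median 0.869). No library of fat overlapped with one of muscle, and none of muscle with one of pituitary gland. Fat exceeded muscle 22.5-fold (log2 difference 4.49 ± 0.298, standard error, n = 10 animals) and liver 798-fold (log2 difference 9.64). In liver the gene rested on 4 to 16 reads per library, so the fold over liver carries the counting error of few reads.

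PNPLA2 was well measured everywhere. Its level was 966 to 3157 CPM in fat (median 1297), 189 to 610 CPM in muscle (median 312), 130 to 350 CPM in liver (median 196) and 27.7 to 64.4 CPM in pituitary gland (median 37.0). Fat lay above muscle in all 10 animals, by 4.72-fold (log2 difference 2.24 ± 0.228). Muscle also lay above liver in all 10 animals as labelled, by a smaller 1.67-fold (log2 difference 0.74, edgeR quasi-likelihood adjusted p = 0.00467), although the 2 ranges overlapped.

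MGLL followed the same order with a near tie in the middle. Levels ran from 279 to 1336 CPM in fat (median 616), 133 to 269 CPM in muscle (median 194), 80.0 to 373 CPM in liver (median 159) and 3.90 to 13.3 CPM in pituitary gland (median 6.55). Muscle and liver did not differ by this test (log2 difference of liver to muscle -0.15 ± 0.259, edgeR quasi-likelihood adjusted p = 0.644), and liver was the higher of the 2 in 3 of 10 animals as labelled. The pituitary gland was set apart by 25.6-fold from liver (log2 difference 4.68), the lowest library of liver lying above the highest of pituitary gland.

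The activator and the inhibitor of PNPLA2 were distributed differently. ABHD5, the activator, was at 14.9 to 77.0 CPM in fat (median 40.3), 17.1 to 46.5 CPM in muscle (median 24.0), 4.80 to 8.72 CPM in liver (median 7.16) and 4.30 to 7.89 CPM in pituitary gland (median 5.66). Its excess in fat over muscle was 1.47-fold (log2 difference 0.56 ± 0.216, edgeR quasi-likelihood adjusted p = 0.0207) and was seen in 7 of 10 animals. It no longer passed the threshold without bull 2 (log2 difference 0.50, adjusted p = 0.0618) or without bull 4 (0.50, adjusted p = 0.0621). Liver and pituitary gland did not differ by this test (log2 difference 0.22, adjusted p = 0.372), and the sign of that difference depended on the scaling: with library sizes alone it was -0.61 (adjusted p = 0.00714).

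G0S2, the inhibitor, was lowest in muscle. Its level there was 1.04 to 11.97 CPM (median 4.58), from 6 to 81 reads per library, against 7.97 to 23.9 CPM in pituitary gland (median 16.3), 20.1 to 209 CPM in liver (median 48.2) and 70.0 to 3038 CPM in fat (median 178). Muscle was below the pituitary gland in all 10 animals, by 2.85-fold (log2 difference of muscle to pituitary gland -1.51 ± 0.502, edgeR quasi-likelihood adjusted p = 0.0143). Fat exceeded liver by 7.51-fold (log2 difference 2.91 ± 0.496), but only in 8 of 10 animals as labelled. The mean in fat, 592 CPM, lay well above the median. That mean and the fold over liver both include bull 5, whose fat library stood apart. G0S2 was there at 3038 CPM, against 70.0 to 247 CPM in the fat of the other bulls.

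Within a library, the level of PNPLA2 relative to its inhibitor separated muscle from the rest. The median ratio of PNPLA2 to G0S2 in CPM was 65.2 in muscle (28.2 to 241), 6.84 in fat (0.842 to 19.0), 3.98 in liver (0.919 to 8.55) and 2.49 in pituitary gland (1.59 to 4.81). Every muscle library had a higher ratio than every library of the other tissues. The ratio compares reads and not molecules, since the genes differ in length, but the same pair of genes is compared in each tissue.

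**Figure D2:**
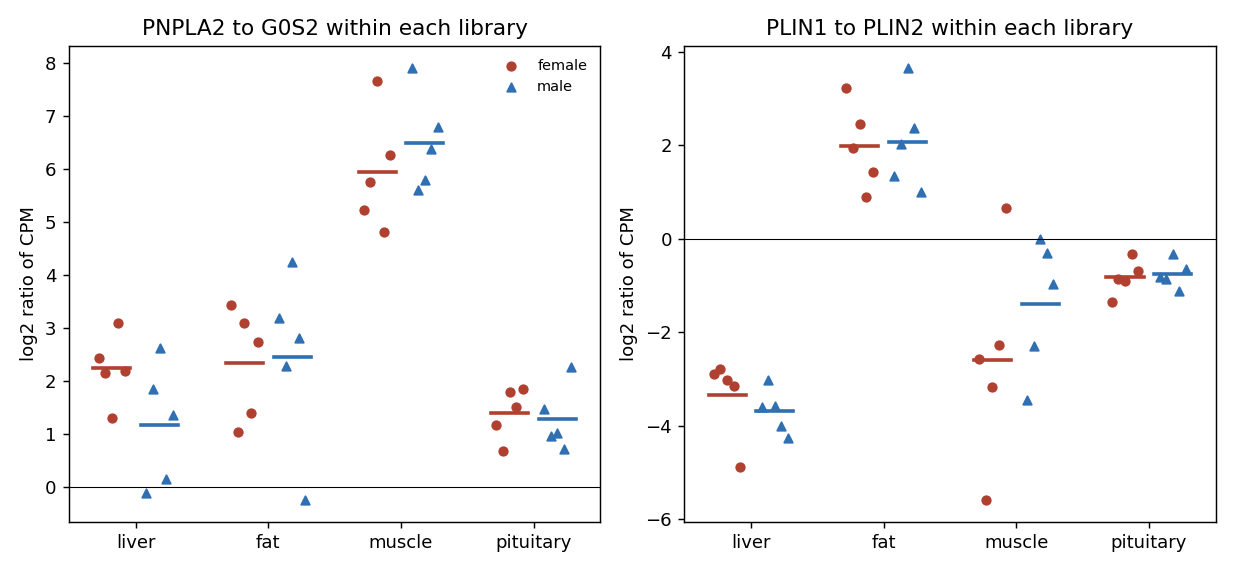
Log2 ratio of CPM of PNPLA2 to G0S2 and of PLIN1 to PLIN2 within each library, by tissue, with females as circles, males as triangles and a line at the mean of each group of 5. The ratio of PNPLA2 to G0S2 was above 28 in every muscle library, and PLIN1 to PLIN2 lay above 1 in every fat library.

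Of the droplet coats, PLIN1, the perilipin of the adipocyte, behaved like LIPE. It was at 1114 to 2704 CPM in fat (median 2001), 10.7 to 253 CPM in muscle (median 44.8), 6.94 to 10.5 CPM in pituitary gland (median 9.30) and 3.93 to 7.30 CPM in liver (median 5.43). Fat exceeded muscle by 30.7-fold (log2 difference 4.94 ± 0.310). The difference between liver and pituitary gland was small (log2 difference -0.76, edgeR quasi-likelihood adjusted p = 0.0365) and passed the threshold no longer without the liver of bull 3 (log2 difference -0.73, adjusted p = 0.0564). The same held when all tissues of cow 4, bull 1, bull 3 or bull 5 were left out, with log2 differences of -0.71, -0.75, -0.70 and -0.72 (adjusted p = 0.0731, 0.0580, 0.0839 and 0.0705).

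PLIN2, the perilipin found on droplets of many cell types, decreased in the order fat, muscle, liver and pituitary gland, each step passing the test. Levels were 172 to 778 CPM in fat (median 443), 41.8 to 522 CPM in muscle (median 176), 35.8 to 120 CPM in liver (median 60.0) and 13.1 to 19.4 CPM in pituitary gland (median 16.8). Fat was higher than muscle by 2.36-fold (log2 difference 1.24 ± 0.290, edgeR quasi-likelihood adjusted p = 0.000375), in 8 of 10 animals, and the ranges overlapped. The median ratio of PLIN1 to PLIN2 was 3.94 in fat, 0.556 in pituitary gland, 0.205 in muscle and 0.0967 in liver.

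PLIN5, the perilipin of tissues that burn fat, was the exception to the order. It was at 9.24 to 75.4 CPM in muscle (median 26.0), 4.88 to 31.0 CPM in fat (median 11.0), 1.79 to 13.3 CPM in liver (median 6.57) and 0.217 to 1.21 CPM in pituitary gland (median 0.460). Muscle exceeded fat by 2.23-fold (log2 difference of fat to muscle -1.16 ± 0.365, edgeR quasi-likelihood adjusted p = 0.00578), in 8 of 10 animals. With library sizes alone this log2 difference shrank to -0.42 (adjusted p = 0.324). The excess of fat over liver (log2 difference 0.93, adjusted p = 0.0247) no longer passed the threshold without the fat of bull 5 (log2 difference 0.63, adjusted p = 0.136), without cow 2 (0.75, adjusted p = 0.0810) or without cow 4 (0.83, adjusted p = 0.0687).

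CIDEC, which joins droplets and moves lipid from the smaller to the larger, had the largest differences between fat and liver (log2 difference 9.89) and between fat and pituitary gland (12.23) of the 9 genes. It was at 1517 to 5352 CPM in fat (median 2086), 3.93 to 184 CPM in muscle (median 23.8), 0.256 to 7.52 CPM in liver (median 1.95) and 0 to 1.21 CPM in pituitary gland (median 0.410), where it rested on 0 to 24 reads per library. Fat exceeded muscle by 60.5-fold (log2 difference 5.92 ± 0.514) and muscle exceeded liver by 15.7-fold (log2 difference 3.98 ± 0.524). The highest liver level, 7.52 CPM, was that of bull 2, whose liver also held the adipocyte markers LEP, FABP4, PPARG and TUSC5 at the highest level of the 10 livers, with a summed level over the 5 measured adipocyte markers of 22.6 CPM against a median of 4.14 CPM. Whether these markers had a part in it was not tested.

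**Figure D3:**
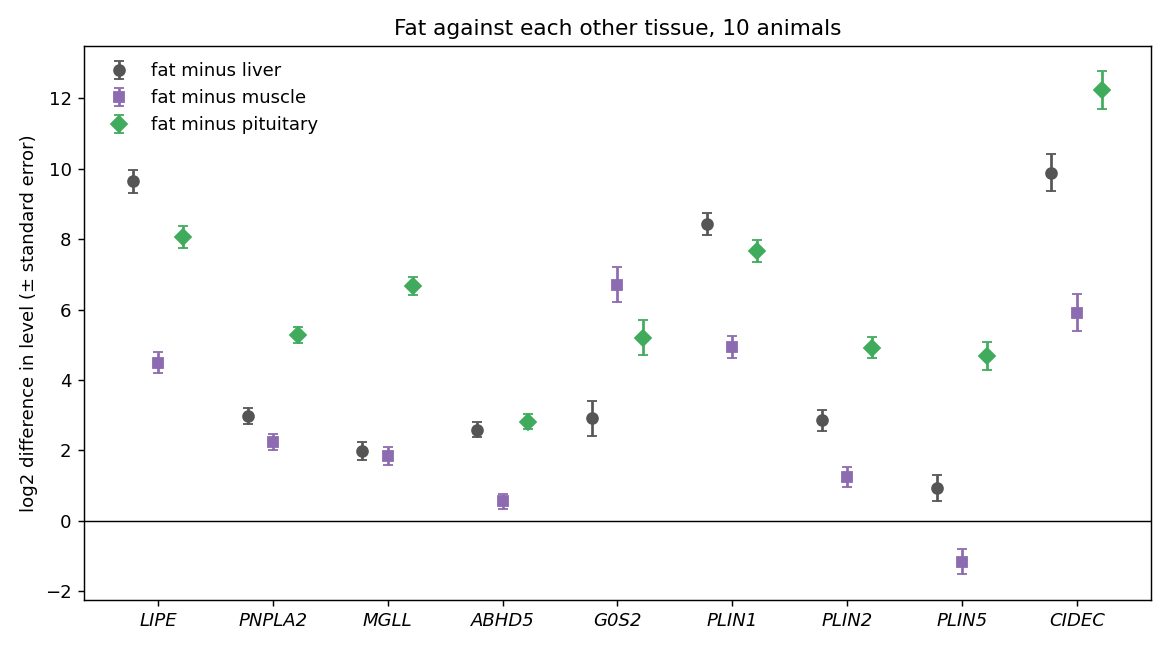
Log2 difference in level between fat and each other tissue for the 9 genes, with the standard error of the edgeR fit over 10 animals per tissue. All differences lie above 0 except that of PLIN5 between fat and muscle (-1.16), and those of LIPE, PLIN1 and CIDEC over liver exceed 8.

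Counted by comparison, all 9 genes differed between fat and liver, fat and muscle, fat and pituitary gland, and muscle and pituitary gland, while 8 of 9 did between liver and muscle and between liver and pituitary gland. In fat against liver all 9 were higher in fat (35.4% of all genes tested were). In fat against muscle 8 were (32.8%) and PLIN5 was higher in muscle (26.8%), and in fat against pituitary gland all 9 were (31.8%). Between liver and muscle 7 were higher in muscle (34%) and 1 in liver (28%), between liver and pituitary gland 6 were higher in liver (29.4%) and 2 in pituitary gland (35.1%), and between muscle and pituitary gland 8 were higher in muscle (31.5%) and 1 in pituitary gland (32.5%). The median log2 difference over the 9 genes was 2.91 for fat to liver, 2.24 for fat to muscle and 5.28 for fat to pituitary gland, against 0.13, 0.13 and -0.02 over all genes.

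The other genes of lipid storage and its hormonal control, a list of 38 of which 35 were measured, were less uniform. Of these, 14 were higher in fat than in each other tissue (11.4% of all genes), 6 in liver (13.6%), 3 in muscle (13%) and 2 in the pituitary (15.5%). Of the same 35 genes, 17 were lower in the pituitary than in each of the others (10.3% of all genes). Some genes, such as DGAT2 and LPL, are in both counts. Among the genes of that list whose mean was highest in fat, the most abundant were FABP4, a carrier of fatty acids, at 5621 ± 3823 CPM (SD, n = 10), DGAT2, which makes triacylglycerol, at 3035 ± 1110 CPM, and CD36, a fatty acid transporter, at 2544 ± 933 CPM. Among those highest in liver they were ACSL1, which activates fatty acids, at 1658 ± 1070 CPM, and the droplet enzymes HSD17B11 at 1180 ± 290 CPM and HSD17B13 at 1165 ± 338 CPM. HSD17B13 was at 0.796 CPM on average in the next tissue.

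Among those whose mean was highest in muscle, the most abundant were GPD1, which supplies the glycerol backbone, at 934 ± 432 CPM, LPIN1 at 594 ± 503 CPM and PRKACA, a catalytic subunit of the kinase that activates LIPE, at 187 ± 50.1 CPM. GPD1 had nearly the same mean in fat, 875 CPM. Among those highest in pituitary gland they were BSCL2, the seipin of droplet formation, at 79.8 ± 9.29 CPM, PRKACB at 32.2 ± 9.56 CPM and ADRA2A, an adrenergic receptor that restrains lipolysis, at 4.18 ± 1.69 CPM. Of the relatives of CIDEC, CIDEA was at 268 ± 232 CPM in fat and CIDEB at 259 ± 55.1 CPM in liver.

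Animals differed from each other to an extent that depended on gene and tissue. Measured as the SD of log2(CPM + 0.5) within a sex, the median gene had 0.626 in fat, 0.489 in muscle, 0.460 in liver and 0.348 in pituitary gland. G0S2 was above 99.3% of genes in fat (SD 1.82) and above 97.5% in liver (SD 1.14), while LIPE in fat (SD 0.301) was above only 7.57%. In muscle CIDEC (SD 1.68) and PLIN1 (SD 1.34) were above 99.5% and 98.3% of genes, whereas MGLL (SD 0.314) was above 13.9%. PLIN1 and PLIN2 were tightly held in pituitary gland (SD 0.177 and 0.191). So the same gene, PLIN1, was among the steadiest in one tissue and among the most variable in another.

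In muscle, CIDEC and PLIN1 moved with adipocyte markers. The mean log2(CPM + 0.5) of LEP, FABP4, PPARG, ACVR1C and TUSC5, the markers of fat cells that were measured, ranged from 0.711 in cow 3 to 4.10 in cow 5. CIDEC rose by 1.56 ± 0.166 on the log2 scale for each unit of this mean (edgeR quasi-likelihood test with sex as a term, Benjamini-Hochberg adjusted p = 0.000495) and PLIN1 by 1.17 ± 0.170 (adjusted p = 0.00534). These 2 of the 9 genes passed the test, as did 0.0989% of all genes in the rising direction. LIPE had a slope of 0.80 ± 0.202 (adjusted p = 0.261). The slopes of PNPLA2, MGLL, ABHD5, G0S2, PLIN2 and PLIN5 lay between -0.22 and 0.31 with adjusted p of 1.

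Library by library, in muscle CIDEC was at 3.98 and 3.93 CPM in cow 2 and cow 3, which had the lowest marker means, at 13.4 to 44.9 CPM in cow 1, cow 4 and the 5 bulls, and at 184 CPM in cow 5. PLIN1 was at 10.7 and 16.5 CPM in cow 2 and cow 3, at 22.9 to 82.3 CPM in the same 7 animals, and at 253 CPM in cow 5. Cow 5 was far from the others in both. Without cow 5, the slopes were close to those with it, at 1.59 for CIDEC and 1.09 for PLIN1, but neither passed the test any longer (adjusted p = 0.130 and 0.595). The slope of PLIN1 also lost its call without cow 2 (adjusted p = 0.0685) or cow 3 (0.0536), while that of LIPE gained one without cow 4 (0.0337). The markers are themselves RNA of the same libraries, and FABP4 and PPARG belong to the list of 38 too. ACVR1C was not specific to fat here, with means of 1.67 CPM in liver and 1.56 CPM in pituitary gland against 0.716 CPM in fat.

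**Figure D4:**
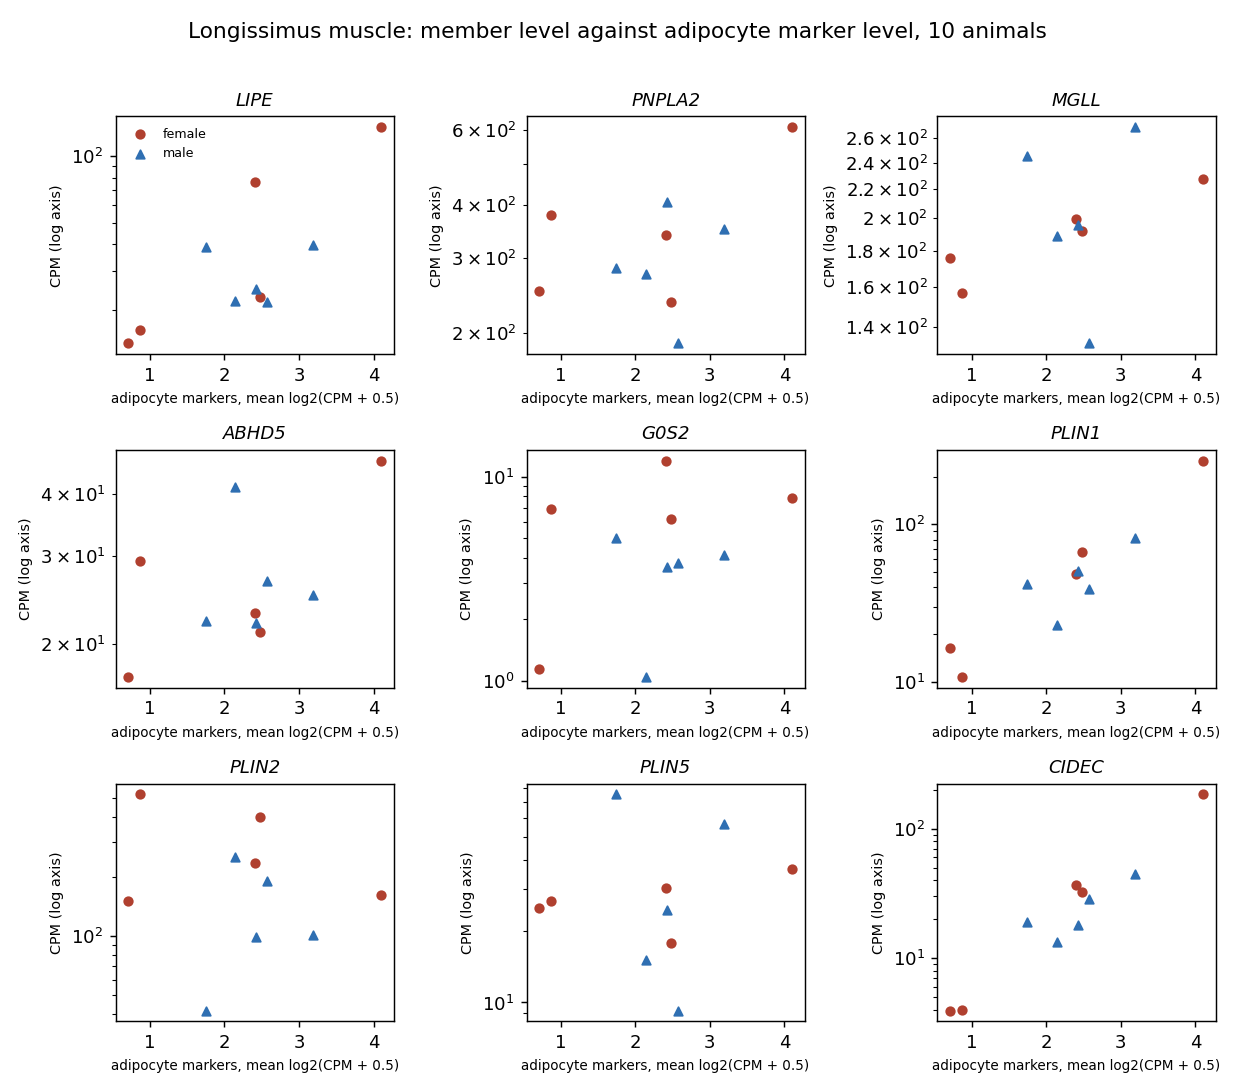
Level of each of the 9 genes in muscle (CPM, log axis) against the mean log2(CPM + 0.5) of 5 adipocyte markers, 1 point per animal, females as circles and males as triangles. CIDEC and PLIN1 rise with the markers, with slopes of 1.56 and 1.17, and the point at the far right is cow 5.

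Between the sexes, no gene of the 9 passed the test in any tissue with the libraries grouped as labelled. Without the liver of bull 3, G0S2 in liver passed (log2 difference 1.75, likelihood ratio test of edgeR, adjusted p = 0.0220). The likelihood ratio test of edgeR with sex as the only term gave 0 of 9 in the liver (0.175% of all genes passed), fat (0.114%), muscle (0.517%) and pituitary (0.745%), with lowest Benjamini-Hochberg adjusted p among the 9 of 0.282, 0.745, 0.301 and 0.424. The quasi-likelihood test, which called 0.00761, 0.0228, 0.0532 and 0.0913% of all genes in these tissues, and DESeq2, which called 0.152, 0.213, 0.677 and 1.03%, also called none of the 9. Over the 40 libraries with tissue as a further term none passed (1.69% of all genes did; lowest adjusted p 0.434), and none had a sex difference that varied between tissues in the test of the interaction (0.335% did; lowest adjusted p 0.626). At an unadjusted p under 0.05, 1 of 9 genes remained in liver (7.45% of all genes), 1 in muscle (11%), 1 in the pituitary (9.27%) and 0 in fat (6.88%). The standard errors of the log2 differences were 0.197 to 0.928, so differences of that order were not detectable with 5 animals of each sex.

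**Figure D5:**
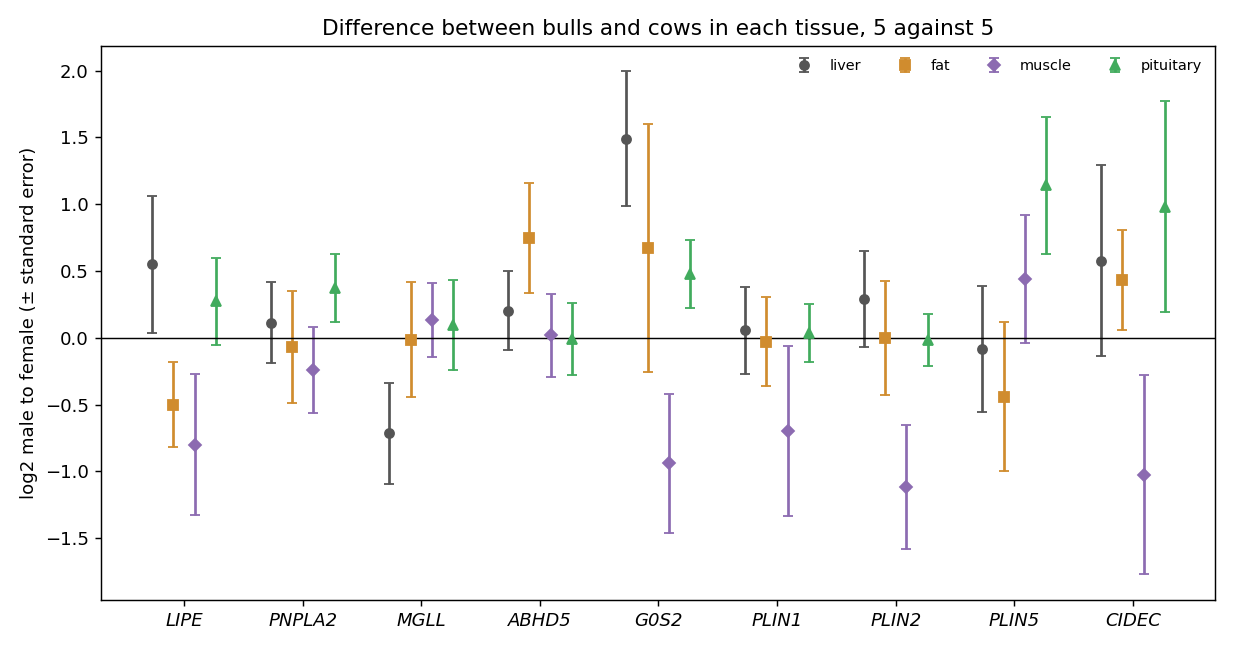
Log2 difference of males to females for the 9 genes in each tissue, with the standard error of the edgeR fit to 5 female and 5 male libraries. With the libraries as labelled, no difference passed the adjusted test, and the difference furthest from 0 was that of G0S2 in liver (1.49). That difference passed without the liver of bull 3.

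G0S2 in liver had the largest of these differences. It was at 37.5, 52.9, 62.1, 20.1 and 43.6 CPM in cow 1 to cow 5, and at 209, 37.6, 21.1, 201 and 136 CPM in bull 1 to bull 5. Bulls 1, 4 and 5 lay above all cows, while bulls 2 and 3 lay within their range. The log2 difference of males to females was 1.49 ± 0.506 (likelihood ratio test of edgeR, adjusted p = 0.282). Without the liver of bull 3, the library that went against its label, it was 1.75 and passed the threshold (adjusted p = 0.0220). The remaining 9 leave-one-out fits gave 1.18 to 1.71 with none passing. G0S2 was thus called without that library alone. The log2 ratio of PNPLA2 to G0S2 in liver was 2.23 ± 0.644 (SD, n = 5) in females and 1.17 ± 1.15 in males, and did not differ in a two-sided exact permutation test over the assignments of animals to sexes (p = 0.127, Benjamini-Hochberg adjusted over 8 such tests p = 0.913). Without the liver of bull 3 the mean of males minus that of females was -1.43 (exact permutation p = 0.0476, unadjusted).

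LIPE in fat was the only one of the 36 combinations of gene and tissue in which the sexes did not overlap. It was at 907, 864, 930, 1683 and 967 CPM in cow 1 to cow 5, and at 846, 678, 854, 760 and 693 CPM in bull 1 to bull 5. The lowest cow, at 864 CPM, lay just above the highest bull, at 854 CPM, and cow 4 stood far above the other cows. The log2 difference of males to females was -0.50 ± 0.319 (likelihood ratio test of edgeR, adjusted p = 0.807), and -0.26 without cow 4. Sexes that did not overlap were found for 1.26% of all genes in fat, 0.57% in liver, 1.73% in muscle and 1.46% in the pituitary.

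PLIN2 in muscle was lower on average in bulls. It was at 399, 522, 150, 234 and 161 CPM in cow 1 to cow 5 and at 251, 191, 41.8, 102 and 98.4 CPM in bull 1 to bull 5. Bulls 3, 4 and 5 lay below all cows, and bulls 1 and 2 among them. The log2 difference was -1.12 ± 0.461 (likelihood ratio test of edgeR, adjusted p = 0.301), and the difference kept its sign in every leave-one-out fit, at -1.46 to -0.80. With the adipocyte marker level as a further term it was -1.01 (adjusted p = 0.461). Macrophage markers, of which 4 of 4 were measured, were also lower on average in the muscle of bulls. Their summed level was 208 to 353 CPM in cows (median 250) and 56.1 to 236 CPM in bulls (median 144). The sum was lowest in bull 3, as was PLIN2. Cow 1 had the lowest sum of the cows, 208 CPM, with PLIN2 at 399 CPM. Bull 4 had the highest sum of the bulls, 236 CPM, with PLIN2 at 102 CPM. CD14 was lower in bulls by the test (log2 difference -1.40, likelihood ratio test of edgeR, adjusted p = 0.0233), and CD68, CSF1R and CD163 had log2 differences of -1.08, -0.91 and -0.65 (adjusted p = 0.331, 0.350 and 0.520). Fibroblast markers, of which 4 of 4 were measured, also ran lower in bulls, with a median sum of 1320 CPM against 2082 CPM in cows. COL1A1, DCN, LUM and PDGFRA had log2 differences of -0.78, -0.70, -0.41 and -0.83 (likelihood ratio test of edgeR, adjusted p = 0.529, 0.495, 0.859 and 0.197). Endothelial markers had median sums of 749 CPM in cows and 690 CPM in bulls. The part of any of these markers in the result was not tested.

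CIDEC and PLIN1 in muscle showed how 1 animal can set a sex difference. Their log2 differences of males to females were -1.02 ± 0.748 and -0.70 ± 0.636, and without cow 5, whose muscle had the most adipocyte marker RNA, they were 0.36 and 0.40. In fat, G0S2 turned in the same manner on bull 5, with 0.67 ± 0.928 as labelled and -1.50 without that library (likelihood ratio test of edgeR, adjusted p = 0.926 and 0.579). G0S2 in fat was at 90.9, 619, 186, 1198 and 144 CPM in cow 1 to cow 5 and 171, 247, 70.0, 159 and 3038 CPM in bull 1 to bull 5. No direction can be given for these 3.

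PLIN5 in pituitary gland, the last with an unadjusted p under 0.05, rested on few reads. It had 3 to 7 reads per library in cows (0.217 to 0.479 CPM) and 8 to 17 reads in bulls (0.353 to 1.21 CPM), with a log2 difference of 1.14 ± 0.515 (likelihood ratio test of edgeR, adjusted p = 0.424). The sexes overlapped, and the filterByExpr function of edgeR leaves PLIN5 out in this tissue.

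Among the other 35 genes, none differed between the sexes in a single tissue, where 0.114 to 0.745% of all genes did. Over the 40 libraries with tissue as a term 2 did (1.69% of all genes). FITM2, which helps to bud droplets from the endoplasmic reticulum, was higher in males by 0.48 ± 0.137 on the log2 scale (likelihood ratio test of edgeR, adjusted p = 0.0366). It was positive in each tissue, from 0.09 in pituitary gland to 0.71 in liver. ADRB3, a beta adrenergic receptor, was higher in males by 2.14 ± 0.603 (likelihood ratio test of edgeR, adjusted p = 0.0248), but at levels of 2.47 CPM or less in every library. This fit treats the 4 libraries of an animal as independent. With the animal as a random block in limma voom neither passed, at 0.49 (adjusted p = 0.259) for FITM2 and 1.53 (adjusted p = 0.319) for ADRB3, and neither did in voom without the block (adjusted p = 0.0751 and 0.0831). In the edgeR quasi-likelihood test FITM2 did not pass (adjusted p = 0.0688), while ADRB3 stayed just under the threshold (adjusted p = 0.0477). The filterByExpr function leaves ADRB3 out. Without the liver of bull 3 FITM2 was at 0.48 (likelihood ratio test of edgeR, adjusted p = 0.0507) and ADRB3 at 2.205 (0.0260), and without the fat of bull 5 they were at 0.48 (0.0454) and 2.09 (0.0343). The 10 fits without 1 animal each gave 0.38 to 0.58 for FITM2, of which 5 passed, and 1.67 to 2.60 for ADRB3, of which 4 passed.

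The pattern over the 40 libraries was shared with other genes. By Pearson's r of log2(CPM + 1), which mostly reflects the 4 tissues and is given as a description, the genes most like LIPE were SFRP5 (r = 0.985) and TUSC5 (0.983), and those most like PLIN1 and CIDEC were LEP (0.985 and 0.991) and TUSC5 (0.980 and 0.989). PNPLA2 was most like ESAM (0.969) and RASIP1 (0.961), MGLL like C28H10orf54 (0.961) and RASGRP2 (0.961), and PLIN2 like ESAM (0.915) and HOXB3 (0.915). For ABHD5 they were RAC1 (0.937) and CAV1 (0.930), for G0S2 GAS2L1 (0.928) and GUK1 (0.918), and for PLIN5 DYSF (0.914) and SIRT2 (0.905). PLIN5 and G0S2 were the least alike of the 9 (r = 0.078).

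After the mean of each tissue and sex was taken away, what remained was how animals deviated from their own group. Over these 40 deviations, CIDEC and PLIN1 (r = 0.752), CIDEC and LIPE (0.702) and LIPE and PLIN1 (0.700) deviated together. A second set was made up of MGLL and PLIN5 (0.718), PNPLA2 and PLIN5 (0.613), G0S2 and PLIN5 (0.595), PNPLA2 and MGLL (0.592), PNPLA2 and G0S2 (0.586) and MGLL and G0S2 (0.561). Without the fat of bull 5, the library that stood apart, the 6 values of the second set were 0.469 to 0.673. Without the muscle of cow 5 the 3 values of the first set fell to 0.471 to 0.575. Between the sets the 12 values were 0.006 (PLIN1 with G0S2) to 0.356 (LIPE with PNPLA2). PLIN2 had r of -0.312 to 0.410 with the other 8 genes and was most like ALB (0.695), the albumin of hepatocytes. The 40 libraries come from 10 animals, each with 4 tissues, so these values are a description only.

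Outside the 9 genes, the deviations of LIPE and PLIN1 were most like those of DGAT2 (r = 0.839 and 0.783) and TUSC5 (0.820 and 0.763), and those of CIDEC like TUSC5 (0.874) and LEP (0.856). PNPLA2 was most like PCED1A (0.798) and ITFG3 (0.792), MGLL like LIMS2 (0.828) and C22H3orf37 (0.794), G0S2 like KANK3 (0.825) and FUZ (0.817), PLIN5 like C15H11orf49 (0.847) and FLT3LG (0.840), and ABHD5 like ANXA6 (0.640) and ELOVL5 (0.614). The fat of bull 5 had the highest levels of MGLL, G0S2 and CIDEC of the 10 fat libraries, at 1336, 3038 and 5352 CPM, and also the highest summed adipocyte markers, at 19466 CPM against a median of 7856 CPM.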

How the data were processed

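Libraries were prepared by the authors from polyadenylated RNA and sequenced from both ends. After trimming (Trimmomatic), the authors mapped reads to bosTau7 with TopHat2, which calls Bowtie2, and HTSeq gave the uniquely mapped reads of each gene. They deposited raw read counts per gene symbol, 1 table for each library. The counting mode and strand are not given in the sources used here, and genes with near copies may be undercounted. A row without a symbol, with 0.114 to 2.69% of the reads, was left out, as were 422 genes with no read. Sex was tested with the likelihood ratio test of edgeR 4.0.16 (R 4.3.3), as in the study, and tissues and marker slopes with its quasi-likelihood test, over 13148 genes with Benjamini-Hochberg adjustment at 0.05. Log2 differences use a prior count of 0.125, ratios a pseudocount of 0.1 CPM and slopes one of 0.5 CPM. Ratios were tested by exact permutation with SciPy 1.17.1. DESeq2 1.42.0, limma 3.58.1, other scaling, a filter on low counts, the animal as a block and leaving out each animal were alternatives. The tests were checked on simulated counts drawn without an animal effect, so that check does not cover libraries of 1 animal that deviate together.

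The samples were grouped by the labels' sex, tissue and animal. The 9 genes were all named, with genes of the further list past the threshold between sexes and, for each tissue, the 3 most abundant of those with their highest mean there, and for likeness the 2 most similar genes; CIDEA and CIDEB were chosen after their values were seen. The members and lists were chosen with earlier results of these data known. Whether tissues of 1 animal deviate together was checked, as the animals come from the labels. Over 10946 genes the mean correlation of deviations between tissues of the same animal was 0.026 to 0.256. It was lowest for fat and pituitary gland, where single animals went down to -0.450 and 5 animals were above 0.1. The labels give the 5 samples of a sex and tissue as separate animals. The most alike pair, the livers of cow 4 and bull 3 (r = 0.993), differed by more than sampling noise (chi-square per gene of 15.0; 43.9 for the next liver pair) and were kept as 2 samples. The value of 15.0 was the lowest of all pairs within a tissue. It does not tell 2 animals from 2 libraries of 1 animal, and whether they share an animal was not tested.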

Additional observations from a re-analysis of the deposited data

Results flagged for a closer look

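In 12 of 72 groups of 5 libraries (9 genes, 4 tissues and 2 sexes), 1 animal lay further from the other 4 than the criterion of Dixon's test allows; by chance about 1 group in 20 would. Over all genes with a mean of at least 1 CPM in the group, 9.61% of 80377 groups did, and 12 of the 67 such groups of the 9 genes. In the fat of males, where bull 5 stands apart, 23.8% of all genes did, and 4 of 9 here.

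In fat, cow 4 was the highest female for LIPE (1683 CPM against 864 to 967 CPM in the other cows) and PNPLA2 (3157 against 966 to 1587 CPM). Bull 5, whose fat library stands apart, was the highest male for MGLL (1336 against 403 to 626 CPM), G0S2 (3038 against 70.0 to 247 CPM), PLIN5 (30.1 against 6.04 to 8.78 CPM) and CIDEC (5352 against 1797 to 2452 CPM).

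In muscle, cow 5 was the highest female for PLIN1 (253 CPM against 10.7 to 66.8 CPM) and CIDEC (184 against 3.93 to 36.6 CPM); its summed adipocyte markers, 428 CPM, were the highest of the 10 muscle libraries. Bull 1 was the highest male for ABHD5 (41.2 against 22.0 to 26.7 CPM).

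In liver, bull 2 was the highest male for CIDEC (7.52 against 0.944 to 2.65 CPM). In pituitary gland, cow 5 was the highest female for PNPLA2 (56.5 against 27.7 to 34.4 CPM) and cow 4 the lowest for PLIN2 (13.1 against 16.7 to 17.9 CPM).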

How the results depend on the processing

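The counts of called genes between tissues were 9, 9, 9, 8, 8 and 9 with the animal as a replicate block, as without it; the block changed no call of the 9 genes, and limma voom with the animal as a random block called 0 of 9 between sexes. FITM2 and ADRB3 were not called with that block; their alternatives and the fits without the fat of bull 5 were chosen after seeing the data. RLE size factors, DESeq2 and a filter on low counts also left the numbers of called genes within 1.5 times the reported ones. That filter leaves out LIPE in liver and PLIN5 and CIDEC in pituitary gland. Library sizes alone turned ABHD5 between liver and pituitary gland to -0.61 and weakened PLIN5 between fat and muscle to -0.42, and shifted the median of all genes by up to 0.86 in log2. Leaving out 1 animal gave 0 to 1 genes by sex in liver (1 without bull 3) and 0 to 3 for the slope in muscle. The liver of bull 3 aside, the log2 ratio of PNPLA2 to G0S2 in males minus females became -1.43 (exact permutation p = 0.0476), and without cow 5 that of PLIN1 to PLIN2 in liver became -0.73 (exact p = 0.0476). ADIPOQ alone could not be run, since the gene is not analysed here; TUSC5 alone, chosen after seeing the data, brought LIPE to 0.58 (adjusted p = 0.0162). With marker level as a term, also added later, ABHD5 by sex in muscle was -0.00329.

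Leaving out each animal in turn gave these ranges of log2 differences of males to females, where the sign changed or, for the ratios in liver, where a call was gained. Ratio of PLIN1 to PLIN2: -0.31 to 0.40 in fat, -0.73 to -0.20 in liver and -0.061 to 0.20 in pituitary gland. Ratio of PNPLA2 to G0S2: -0.33 to 0.79 in fat, -1.43 to -0.74 in liver and -0.35 to 0.034 in pituitary gland. Fat: G0S2 -1.50 to 1.48, MGLL -0.36 to 0.14, PLIN1 -0.17 to 0.11, PLIN2 -0.20 to 0.22, PNPLA2 -0.32 to 0.36. Liver: CIDEC -0.14 to 1.13, PLIN1 -0.057 to 0.18, PLIN5 -0.45 to 0.15, PNPLA2 -0.16 to 0.23. Muscle: ABHD5 -0.17 to 0.27, CIDEC -1.36 to 0.36, PLIN1 -0.999 to 0.40, PLIN5 -0.038 to 0.69, PNPLA2 -0.37 to 0.0060. Pituitary gland: ABHD5 -0.16 to 0.12, MGLL -0.040 to 0.49, PLIN1 -0.051 to 0.097, PLIN2 -0.089 to 0.038. Slopes in muscle: ABHD5 -0.056 to 0.31, PLIN2 -0.44 to 0.058, PLIN5 -0.14 to 0.24, PNPLA2 -0.011 to 0.30. None of these differences passed the test as reported, and the cause of the changes was not tested.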
